A study of Danio rerio with 2 samples.

Results

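Interferon response and antigen processing genes were compared between the livers of uninjected control and man1a2 morphant zebrafish larvae. The genes were given as a list of 50 symbols, covering receptor chains, signalling and transcription factors, nucleic acid sensors, antiviral effectors and the antigen processing machinery. Of these symbols, 42 matched 42 of the 31953 gene IDs in the count tables. The symbols cgasa and socs1a matched CGAS and SOCS1. The remaining 8 symbols (irf2, ifi45, parp14, dtx3lb, rigi, samd9, crfb5 and zc3hav1) matched no ID and were not analysed here.

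The study had 1 control library and 1 morphant library, each made from a pool of 100 livers that came from 3 batches and were taken at 5 days post fertilization. Morphants had been injected at the one-cell stage with a morpholino, a synthetic antisense oligonucleotide, against man1a2, which encodes a Golgi mannosidase that trims N-linked glycans. The labels give neither the morpholino (translation-blocking or splice-blocking) or dose of the sequenced pool, nor the transgenic line of the larvae. Controls were not injected, so man1a2 knockdown and the injection itself cannot be told apart. With 1 library per group there is no replicate check of any difference below, and all intervals cover counting error only.

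Type I interferons are cytokines released when cells sense foreign nucleic acids. In zebrafish, type I interferons signal through receptor chains of the cytokine receptor family B (crfb), and the kinases and STAT proteins downstream join with Irf9 to switch on interferon-stimulated genes. Those genes encode antiviral effectors, further sensors, feedback inhibitors and the transporters and chaperones that load peptides onto MHC class I. In a resting tissue the effectors are expressed little, while several STATs and interferon regulatory factors (IRFs) are present before any stimulus.

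The libraries held 19658335 (control) and 19783886 (morphant) counts. The target, MAN1A2 (ENSDARG00000041728), had 193 and 195 reads. A morpholino blocks translation or splicing, so this count does not measure knockdown. Liver identity was clear in both libraries, since 12 hepatocyte marker genes took 19.5% of control and 18.8% of morphant counts. Among markers of other cell types, all 11 exocrine pancreas IDs with 10 or more reads were higher in the morphant library. So were 7 of 9 such epidermal IDs. By the read test described below, 12.5% of all genes with that many reads were higher. The marker sums went from 640 to 8718 reads (pancreas) and from 391 to 1934 reads (epidermis). The part of these other cells in the results below was not tested. In bulk tissue, fewer cells of a type and less RNA per cell cannot be told apart.

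As a group, the interferon and antigen processing genes had fewer reads in the morphant library. Their reads summed to 6812 in controls and 5546 in morphants. After scaling by median-of-ratios size factors, the morphant-to-control ratio was -0.40 on the log2 scale, with a 95% exact counting interval of -0.46 to -0.35. By the same scaling, the reads of all genes together had a log2 ratio of -0.10. The sum of the members was 0.0347% of control and 0.0280% of morphant counts. The beta-2-microglobulin-like gene b2ml led the sum, and without it the reads were 4858 and 4094, a log2 ratio of -0.35 (interval -0.41 to -0.29). The plot of reads per gene shows how unevenly they were spread, from b2ml with over 1000 reads in each library to antiviral effectors with a single read.

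**Figure D1:**
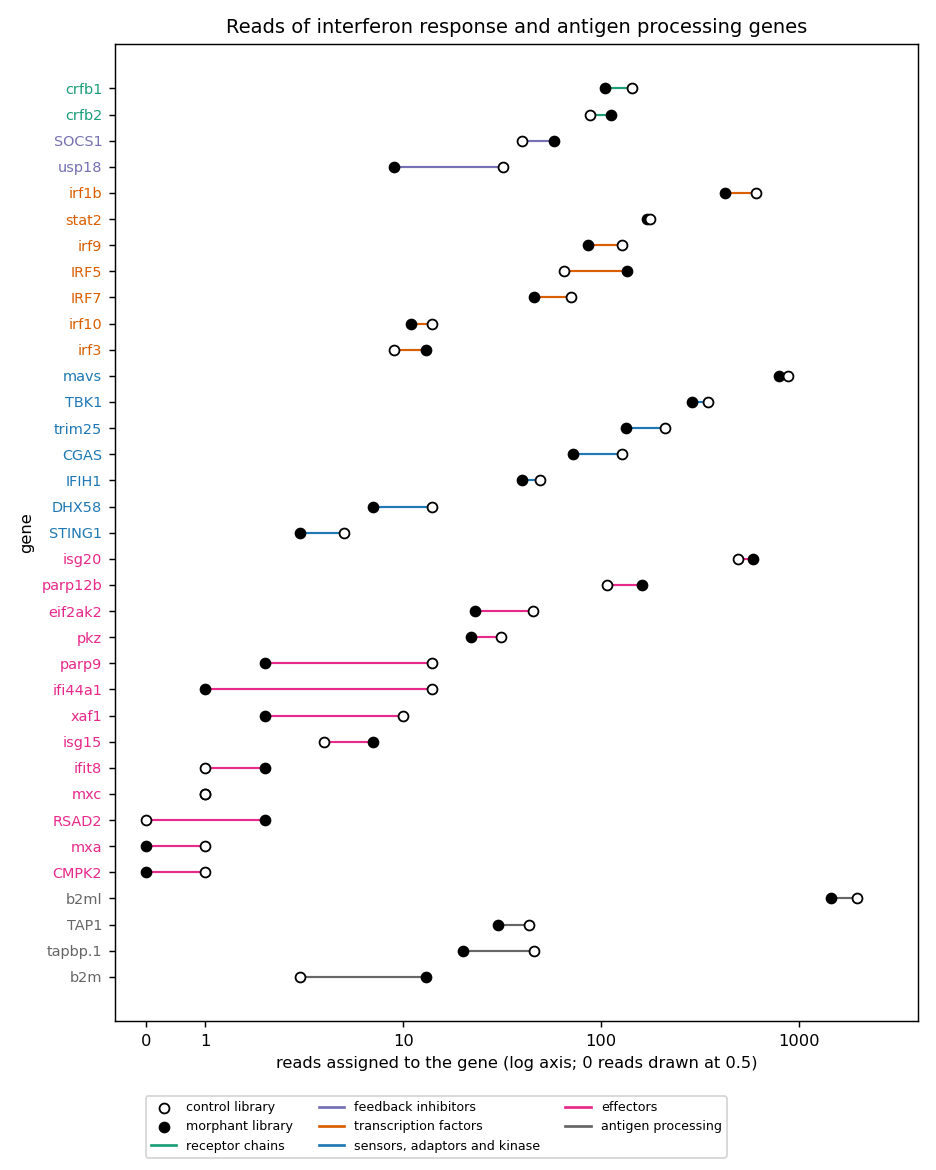
Reads of genes with at least 1 read and a symbol of 1 ID in the control (open circles) and morphant (filled circles) library, on a log axis with 0 reads drawn at 0.5, coloured by role. Most filled circles lie left of their open circle, as for b2ml (1954 and 1452 reads) and usp18 (32 and 9), while IRF5 (65 and 135) is an exception, and mxc had 1 read in each.

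Each gene with 10 or more reads over both libraries was given an exact binomial test of its reads, here called the read test. A gene was past it with a Benjamini-Hochberg adjusted p under 0.05 over all genes and a fold of 1.2 or more. Of the 30 members tested, 14 were lower and 2 higher in the morphant library, and 14 were not past the test. Over all 15732 genes tested, 12.6% were lower and 12.5% higher. The test compares these libraries and not the conditions, and the genes were listed with earlier results of these data known.

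Depth affects how often a gene can pass, so the counts were also set beside genes of like depth. Of 15 members with 10 to 99 reads, 5 were lower and 0 higher, against 8.11% and 5.78% of all such genes. Of 10 members with 100 to under 1000 reads, 6 were lower and 2 higher, against 14.4% and 14.6%. Of 5 members with 1000 or more reads, 3 were lower and 0 higher, against 15.6% and 18.5%. Of the 17 members with under 20 reads, 12 had under 10 and were not tested, 5 of them at 0 in both libraries. Of the 5 others, the 2 that passed (ifi44a1 and parp9) had 14 of 15 and 14 of 16 reads in the control library, so only members high in 1 library could pass there.

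The size of the differences was mostly moderate. Over the 25 members with 20 or more reads, the median log2 ratio was -0.56, against 0.02 over all 14284 genes with that many reads. Of these 25, 19 had ratios below 0, against 48.5% of all such genes. By depth these were 8 of 10 members with 20 to 99 reads (background 54.8%), 7 of 10 with 100 to under 1000 (48.5%) and 4 of 5 with 1000 or more (41.6%). At least 2-fold lower were 4 members (usp18, tapbp.1, eif2ak2 and DHX58), all with under 100 reads, and 0 were 2-fold higher. Over all genes with 20 or more reads, 4.12% were 2-fold lower and 3.41% 2-fold higher, and with 20 to 99 reads 10.8% and 8.61%. Neither 2-fold change was seen in members with 100 to under 1000 reads (background 1.98% and 1.71%) or with 1000 or more (1.51% and 1.42%). Ratios below 0 were found in 11 of the 15 members with 100 or more reads, as the plot of ratio against depth shows for those with a symbol of 1 ID.

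**Figure D2:**
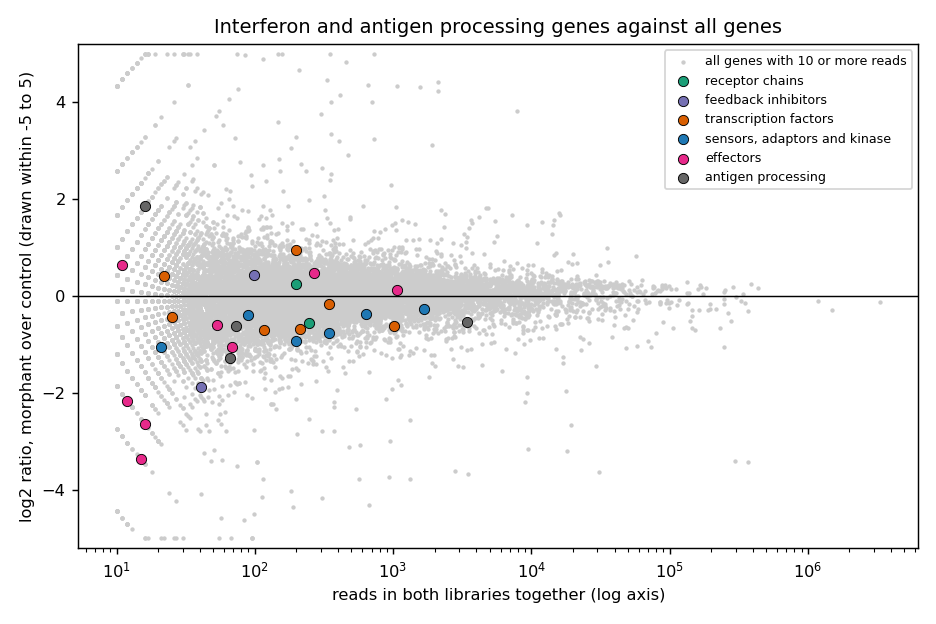
Log2 ratio of normalized reads, morphant over control (vertical axis, drawn within -5 to 5), against the reads of both libraries together (horizontal log axis), for all 15732 genes tested (grey) and the members tested whose symbol has 1 ID (coloured by role). Among those with 1000 or more reads, irf1b lies at -0.62, b2ml at -0.54, mavs at -0.26 and isg20 at 0.13.

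The read test allows for no variation between pools, and assuming some removed most calls. When edgeR's exact test was given a coefficient of variation of 0.1, 4 members stayed lower (usp18, ifi44a1, tapbp.1 and CGAS), against 3.54% of all genes. Among them, ifi44a1 had only 14 control reads and 1 morphant read. IRF5 alone stayed higher, against 2.83%. Given 0.2, that test called 0 members in either direction, against 0.68% lower and 0.718% higher over all genes. At an unadjusted p under 0.05 in that test, 5 members were lower and 2 higher. The share of all genes at that unadjusted threshold was not worked out, so these counts have no background. How far such pools vary was not measured.

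Of the interferon ligands, almost no transcript was counted. ifnphi1, a type I interferon, had 1 read in each library, and ifnphi3 had 2 in controls and 0 in morphants. For ifnphi2, ifnphi4 and ifng1, the type II interferon, both libraries were at 0, which allows up to 3 reads. Whether these ligands differed was not detectable at this depth.

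The receptor chains were present in both libraries and went different ways. crfb1 (ENSDARG00000068681), a chain of the zebrafish type I interferon receptor, had 143 control and 104 morphant reads, and was lower with a log2 ratio of -0.56 (interval -0.95 to -0.19, exact binomial adjusted p = 0.0112). crfb2 (ENSDARG00000040332), another such chain, had 88 and 112 reads, with a ratio of 0.24 whose interval of -0.18 to 0.66 included 0. These genes are direct neighbours in RefSeq's gene order for GRCz12tu. Such pairs were formed for all neighbours with at most 1 gene between them, at least 1 member and 20 or more reads each, which gave 4 pairs, and their intervals are not adjusted for that number. Since both genes of a pair were counted in the same libraries, their ratio needs no scaling. It was 1.63 reads of crfb1 per read of crfb2 in controls and 0.929 in morphants, and the morphant-to-control quotient was 0.571 (95% exact interval 0.385 to 0.847). crfb4 (ENSDARG00000068711), a chain of the interleukin 10 receptor group, fell from 270 to 146 reads (-0.99, interval -1.30 to -0.70). It was not on the list of 50.

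Of the feedback inhibitors, usp18 was lower, with the most negative ratio among the 25 members with 20 or more reads, and SOCS1 was not past the test. usp18 (ENSDARG00000088078) encodes a protease that removes the ubiquitin-like protein Isg15 and in mammals also blocks the type I receptor. It had 32 control and 9 morphant reads, 3.68-fold fewer after scaling (-1.88, interval -3.19 to -0.84, exact binomial adjusted p = 0.00103). SOCS1 (ENSDARG00000038095), matched to socs1a, encodes an inhibitor of JAK kinases and had 40 and 58 reads, a ratio of 0.42 (interval -0.18 to 1.05).

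Of the transcription factors, irf9, irf1b and IRF7 were lower, with ratios of like size, and IRF5 was higher. stat2 (ENSDARG00000031647), a transducer of type I signalling, had 176 and 170 reads, a ratio of -0.16 (interval -0.47 to 0.15), and was not past the test.

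irf9 (ENSDARG00000016457), which brings STAT proteins to DNA, had 128 and 86 reads and was lower at -0.68 (interval -1.09 to -0.28). irf1b (ENSDARG00000043249), an activator induced by interferon gamma, had 602 and 422 reads and was lower at -0.62 (interval -0.80 to -0.44). IRF7 (ENSDARG00000045661), which amplifies interferon transcription, had 70 and 46 reads and was lower at -0.71 (interval -1.28 to -0.16, exact binomial adjusted p = 0.0372). It was not past the test when libraries were scaled to total counts (exact binomial adjusted p = 0.0769). These 3 activators lay between -0.71 and -0.62.

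IRF5 (ENSDARG00000045681), a factor activated downstream of Toll-like receptors, went the other way. Its reads were 65 in controls and 135 in morphants, 1.92-fold more after scaling (0.94, interval 0.51 to 1.40, exact binomial adjusted p = 8.09e-05). irf3 (9 and 13 reads) and irf10 (14 and 11 reads) had intervals that included 0, and irf1a was at 0 in both libraries. irf2a and irf2b of the wider list, the zebrafish genes named after mammalian IRF2, had 98 and 88 reads and 196 and 192 reads, and neither was past the test.

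All 6 sensors, adaptors and kinases with 20 or more reads had ratios below 0, against 48.5% of all such genes. Of these 6, 3 were lower by the read test, against 12.6% of all genes tested. CGAS (ENSDARG00000021572), the sensor of cytosolic DNA, had 128 and 72 reads and was lower at -0.93 (interval -1.37 to -0.51, exact binomial adjusted p = 7.04e-05). trim25 (ENSDARG00000104396), a ubiquitin ligase that activates the RNA sensor RIG-I in mammals, had 210 and 134 reads and was lower at -0.75 (interval -1.08 to -0.44). TBK1 (ENSDARG00000103095), the kinase that phosphorylates IRF3, had 346 and 289 reads and was lower at -0.37 (interval -0.60 to -0.14). Scaled to total counts, TBK1 was not past the test (exact binomial adjusted p = 0.0588).

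mavs (ENSDARG00000069733), the mitochondrial adaptor of the RNA sensors, had 877 and 790 reads. Its ratio of -0.26 (interval -0.40 to -0.12) stood under the 1.2-fold minimum, and passed it under the edgeR scalings. IFIH1, a sensor of long double-stranded RNA, had 49 and 40 reads (-0.40, interval -1.04 to 0.23), and DHX58, a related regulator, had 14 and 7 (-1.05, interval -2.66 to 0.30). STING1 (ENSDARG00000091058), the adaptor that relays the signal of cGAS, had 5 and 3 reads, too few for the test.

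**Figure D3:**
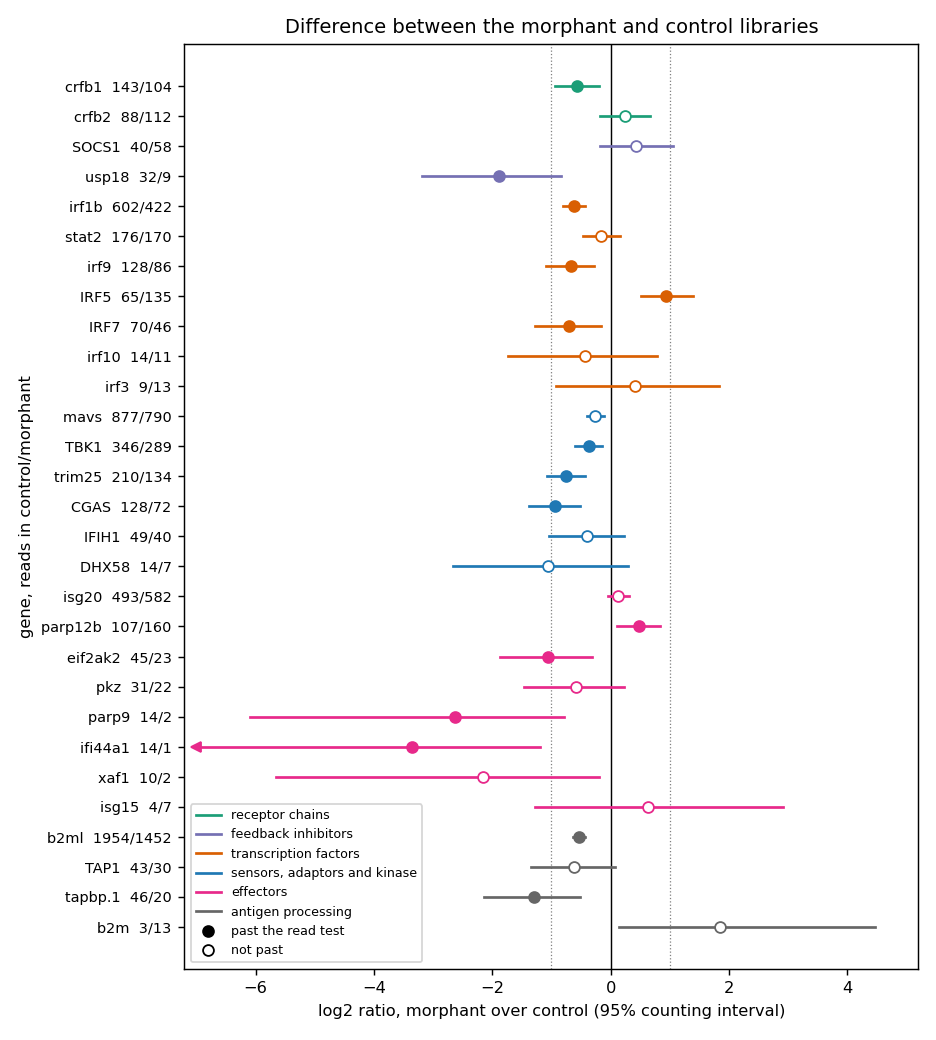
Log2 ratio of normalized reads, morphant over control, for members with 10 or more reads whose symbol has 1 ID, with 95% exact counting intervals (lines, cut at -7 for ifi44a1) and reads in control/morphant beside each name. Filled circles were past the read test, and dotted lines mark 2-fold. Of the filled circles, 13 lie below 0 and 2 above it, IRF5 and parp12b.

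Among the effectors, the pair with most reads was not lower, and most others had few reads. isg20 (ENSDARG00000079783), an exonuclease that degrades viral RNA in mammals, had 493 and 582 reads, a ratio of 0.13 (interval -0.04 to 0.31) that was not past the test. parp12b (ENSDARG00000057974), an ADP-ribosyltransferase gene, had 107 and 160 reads and was higher at 0.47 (interval 0.11 to 0.84, exact binomial adjusted p = 0.0336). These 2 genes took most of the effectors' 722 control and 804 morphant reads, whose sum had a ratio of 0.05 (interval -0.10 to 0.19).

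eif2ak2 and its direct neighbour pkz encode kinases that halt translation on sensing double-stranded RNA (eif2ak2) or Z-form nucleic acid (pkz). eif2ak2 (ENSDARG00000068729) had 45 and 23 reads and was lower at -1.06 (interval -1.87 to -0.32, exact binomial adjusted p = 0.0163). pkz (ENSDARG00000052396) had 31 and 22 reads, a ratio of -0.59 (interval -1.46 to 0.23). The number of eif2ak2 reads per pkz read was 1.45 in controls and 1.05 in morphants, a quotient of 0.720 with an interval of 0.321 to 1.62 that included 1. These paralogs may share reads, and how the authors' counting treated such reads is not given in the sources used here.

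Sparse effectors included the members with the most negative ratios. At such depth a ratio could also lie far above 0, as for b2m (1.85, from 3 and 13 reads). ifi44a1 (ENSDARG00000029720), related to mammalian IFI44, had 14 control reads and 1 morphant read, and a ratio of -3.36 (interval -9.32 to -1.20). parp9 (ENSDARG00000006848), an ADP-ribosyltransferase family gene that works with a DTX3L ubiquitin ligase in mammals, had 14 and 2 reads, a ratio of -2.63 (interval -6.10 to -0.79). Both were past the read test, but with under 20 reads only members high in 1 library could pass, and both intervals are wide. xaf1, a pro-apoptotic gene, had 10 and 2 reads (-2.16, interval -5.66 to -0.20) and was not past it.

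The remaining effectors on the list had few or no reads in both libraries. isg15, the ubiquitin-like modifier, had 4 and 7 reads (0.64, interval -1.28 to 2.92). RSAD2, which encodes viperin, had 0 and 2 reads, and CMPK2, its direct neighbour, had 1 and 0. Of the Mx GTPase genes on the list, mxa had 1 and 0 reads, mxc 1 in each library, and mxb and mxe were at 0. ifit8 had 1 and 2 reads and ifit10 was at 0. With so few reads, no difference was detectable in them. Of the Mx and ifit genes on the wider list, ifit16, ifit11 and mxf had 20 or more reads, and none of the 3 was past the test. ifit16 had 215 and 209 reads and ifit11 41 and 32, while mxf had 20 and 8 (-1.37, interval -2.82 to -0.18, exact binomial adjusted p = 0.0643).

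In antigen processing, b2ml and the chaperone gene tapbp.1 were lower, and TAP1 and b2m were not past the test. b2ml (ENSDARG00000015887), like b2m (ENSDARG00000053136), belongs to the beta-2-microglobulin family, the light chain of MHC class I. It had 1954 and 1452 reads, a ratio of -0.54 (interval -0.63 to -0.44, exact binomial adjusted p = 1.29e-25). b2m itself had 3 and 13 reads, a ratio of 1.85 (interval 0.14 to 4.46). Reads that match both would be hard to assign, and how they were treated is not given in the sources used here.

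tapbp.1 (ENSDARG00000079402) encodes tapasin, which holds empty MHC class I at the peptide transporter. It had 46 and 20 reads, 2.44-fold fewer after scaling (-1.29, interval -2.14 to -0.52, exact binomial adjusted p = 0.00329). Its paralog tapbp.2, with 1 gene between them in RefSeq's order, had 35 and 37 reads (-0.03, interval -0.73 to 0.68). Reads of tapbp.1 per read of tapbp.2 went from 1.31 to 0.541, a quotient of 0.411 (95% exact interval 0.192 to 0.874). TAP1, a subunit of the peptide transporter, had 43 and 30 reads (-0.62, interval -1.35 to 0.08), and tap2a was at 0 in both. tap2t of the wider list, named here after its values were seen, had 160 and 143 reads (-0.27, interval -0.61 to 0.06). It was not past the test.

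The wider pathway was described with a further list of 88 symbols, of which 76 matched 76 IDs. Of 46 tested, 9 were lower, 1 was higher and 36 were not past the read test, against 12.6% lower and 12.5% higher over all genes. Over the 45 with 20 or more reads, the median log2 ratio was -0.18, with 31 below 0. Over all genes with that many reads, the median was 0.02 and 48.5% were below 0. Besides uba7 and crfb4, the genes ranked highest by the interval bound nearest 0 were SOCS3, PSME2, tlr3 and stat6. uba7 (ENSDARG00000061222), which encodes the activating enzyme of ISG15 conjugation in mammals, had 37 control and 7 morphant reads (-2.43, interval -3.92 to -1.33). tlr3 (ENSDARG00000016065), the endosomal receptor for double-stranded RNA, had 44 and 17 reads (-1.45, interval -2.38 to -0.64). stat6 (ENSDARG00000015902), which carries interleukin 4 signals, had 303 and 179 reads (-0.87, interval -1.14 to -0.60).

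PSME2 (ENSDARG00000033144), a subunit of the interferon-inducible proteasome activator, had 90 and 38 reads and was lower at -1.34 (interval -1.94 to -0.79). irf9 is its neighbour with 1 gene between them, and irf9 reads per PSME2 read were 1.42 in controls and 2.26 in morphants, a quotient of 1.59 (interval 0.974 to 2.62). The further genes named here were chosen after their values were seen. PSME1, the other subunit of that activator, had 181 and 130 reads (-0.58, interval -0.92 to -0.25). PSMB8 and psmb12 of the immunoproteasome were at 0 in both libraries, PSMB9 had 0 and 1 reads, and PSMB10 had 37 and 51. The MHC class I gene mhc1zba had 573 and 467 reads and was lower at -0.40 (interval -0.58 to -0.22). The housekeeping chaperones CALR, CANX and PDIA3 lay between -0.07 and 0.08.

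SOCS3 (ENSDARG00000025428), a feedback inhibitor of cytokine receptors, was the only gene of the wider list past the test upwards. It had 25 and 82 reads (1.59, interval 0.94 to 2.31). A second ID under the same symbol, ENSDARG00000026611, had 408 and 389 reads (-0.18, interval -0.38 to 0.03). JAK1, the kinase at the receptors, had 2179 and 2038 reads (-0.20, interval -0.29 to -0.12), under the 1.2-fold minimum.

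Leukocytes express many of these genes, so leukocyte markers were compared in the same way. Of 18 leukocyte marker IDs tested, 8 were lower and 0 higher, against 12.6% and 12.5% of all genes tested. The summed reads of the 31 IDs went from 3703 to 896. Most of that change came from the 6 IDs that share the symbol MFAP4, of which ENSDARG00000090557 had 2573 and 226 reads. Whether each of these IDs marks macrophages was not tested. Without the IDs under MFAP4 the sums were 823 and 534 reads, a log2 ratio of -0.73 (interval -0.89 to -0.57), with 5 of 14 lower. The defining markers mpeg1.1 and mpx matched no ID. The neutrophil genes lyz (55 and 2 reads), MMP9 (46 and 8) and mmp13a (68 and 6) and the macrophage gene marco (35 and 15) were lower, as was srgn (393 and 301), which held most neutrophil marker reads. Not past the test were nccrp1 (74 and 84), csf1rb (5 and 9), c1qc (4 and 13) and the MFAP4 ID ENSDARG00000088745 (74 and 90), all with more morphant reads. The macrophage genes csf1ra (22 and 16), SPI1 (24 and 11) and the pan-leukocyte gene ptprc (22 and 9) were not past the test. Neither was CORO1A (57 and 37), counted with the macrophage markers. Log2 intervals lay below 0 for SPI1 (-2.41 to -0.15), ptprc (-2.70 to -0.22) and CORO1A (-1.37 to -0.11), and included 0 for csf1ra. Of the lymphocyte markers, cd4-1, cd8a, cd79a, cd79b, ighm and ZAP70 were at 0. The part of leukocytes in the lower interferon gene reads was not tested.

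**Figure D4:**
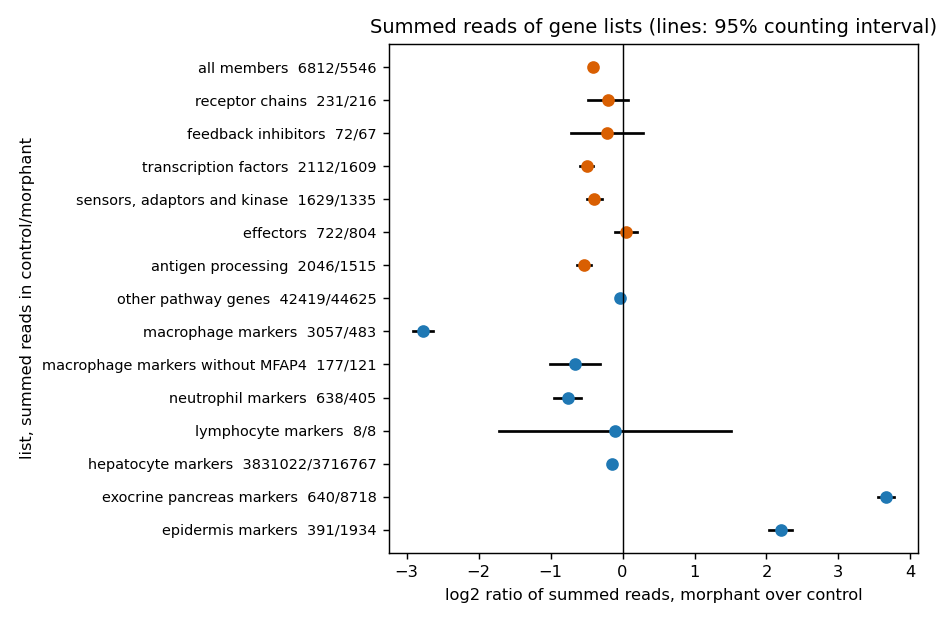
Log2 ratio of summed reads, morphant over control, with 95% exact counting intervals, for the interferon and antigen processing genes and their roles (orange) and for other lists (blue), with summed reads in control/morphant beside each name. The whole set lies at -0.40 and the effectors at 0.05, while macrophage markers lie at -2.77 (without MFAP4 -0.66), neutrophil markers at -0.76, and pancreas and epidermis markers above 0. The sum over all genes, not drawn, was at -0.10.

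The sums of the roles were as follows. Transcription factors went from 2112 to 1609 reads, a log2 ratio of -0.50 (interval -0.59 to -0.41). Sensors, adaptors and kinases went from 1629 to 1335 reads (-0.39, interval -0.50 to -0.29). Antigen processing genes went from 2046 to 1515 reads (-0.54, interval -0.64 to -0.44), of which b2ml was the bulk. Receptor chains (-0.20) and feedback inhibitors (-0.21) had intervals that included 0. By the same scaling, the sum over all genes lay at -0.10. Whether any role differed from another was not tested.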

How the data were processed

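Poly-A selected, strand-specific libraries were made from pooled liver RNA, 1 for controls and 1 for morphants. The authors deposited raw counts, the whole number of reads per Ensembl gene, without normalization. The submitters' processing notes name the build GRCz10, FastQC and DESeq2. The aligner, counting program and handling of multiply matching reads are not given in the sources used here.

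Members and lists were chosen with earlier results of these data known. Symbols came from a name table covering 81.7% of the IDs, matched without regard to case, and then without a final a or b. Gene order came from RefSeq's GRCz12tu table, and no coordinates or sequences are given.

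Counts were scaled with the size factors of DESeq2 1.42.0 in R 4.3.3. Log2 ratios carry a pseudocount of 0.5 and intervals (95% Clopper-Pearson) none. The binomial p was 2 times the smaller tail. Quotients of gene pairs carry exact conditional odds ratio intervals. edgeR's quasi-likelihood test and DESeq2's test cannot be fitted with 1 library per group. edgeR 4.0.16 gave the alternative scalings and its exact test with assumed variation. Reads are given for members with 20 or more, and ratios and intervals for those past the test or 2-fold apart. From the wider pathway list, the 6 genes past the test with the interval bound farthest from 0 were named. PCR copies are not independent molecules, so intervals cover counting error only. The values of 1 member are not reported here, though the counts and sums hold it.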

Additional observations from a re-analysis of the deposited data

How the results depend on the processing

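No paired analysis was possible because controls and morphants had 1 library each. The 14 lower members were 15 under TMM and upper-quartile factors and 12 under total counts, where IRF7 and TBK1 were not past the test. The 2 higher members stayed 2 under every scaling and read minimum tried. Over all genes, lower calls also rose, from 1982 to 2081 (TMM) and 2192 (upper-quartile), while higher calls fell from 1974 to 1874 and 1773. A minimum fold of 2 left 5 lower and 0 higher, against 555 and 433 of all 15732 genes tested. The 5 were usp18, tapbp.1, eif2ak2, ifi44a1 and parp9. Of these, ifi44a1 and parp9 had under 20 reads, where only members high in 1 library could pass. In edgeR's exact test, an assumed coefficient of variation of 0.1 left 4 lower and 1 higher, against 557 and 445 of all 15732 genes. With 0.2, 0.4 or the blind dispersion (both libraries treated as 1 group), 0 and 0 were left. Over all genes these settings called 107 and 113, 19 and 24, and 55 and 60. At such shares, 0 of 30 members tells little. At an unadjusted p under 0.05 in that test, members were 5 lower and 2 higher, 1 and 0, and 0 and 0. The shares of all genes at that threshold were not worked out. Over all genes the read test called 1982 lower and 1974 higher, and 1398 and 3144 under total counts. Total counts, which move log2 ratios up by 0.10, left 2 members 2-fold lower and put 1 (IRF5) 2-fold higher. Over all 14284 genes with 20 or more reads these counts were 493 and 601. The same scaling moved the summed ratio to -0.31. With a minimum of 10 reads 7 members were 2-fold lower and 1 (b2m) higher, against 916 and 768 of all 15732 genes. Among these members, ifi44a1, parp9, xaf1 and b2m had under 20 reads, mostly in 1 library. With 100 reads 0 members were lower, against 194 over all genes. The median of -0.56 ranged from -0.59 to -0.47. Scaling alternatives for single genes and the leukocyte sum without MFAP4 were chosen after seeing the data.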

Other observations

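Some interferon-related families, whose mhc1 and ifi27 genes were in part on the wider list, were looked up by the start of their symbols. This choice was made after values were seen. The finTRIM genes (ftr), a large fish family of ubiquitin ligases related to TRIM25, had 70 IDs, of which 24 had 10 or more reads. Of these, 1 was lower and 2 were higher in the morphant library, and 21 were not past the read test, against 12.6% lower and 12.5% higher over all genes. The higher ftr95 had 0 control and 10 morphant reads, and so passed only through the library where it was high. ftr82 had 790 and 1148 reads and was higher, and ftr14 had 77 and 51 and was lower. Of the 7 MHC class I IDs (mhc1) tested, only mhc1zba, already given with the wider list, was lower. The other 6 were not past the test, with 146 and 145 reads for mhc1zea and 40 and 66 for mhc1lca.

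ifi35, an interferon-induced gene in mammals, had 100 control and 39 morphant reads and was lower, with a log2 ratio of -1.45 (interval -2.04 to -0.92). ifi30a, related to a lysosomal thiol reductase of antigen processing, had 275 and 214 reads and was lower at -0.47 (interval -0.73 to -0.21). ifitm1, of a family that blocks viral entry in mammals, had 293 and 313 reads (-0.01, interval -0.25 to 0.22). The 4 tested ifi27 genes were not past the test, and ifi27.5 among them had 1260 and 1136 reads. The ratio of ifi27.5, -0.26 (interval -0.37 to -0.14), stood under the 1.2-fold minimum. Near-namesakes of symbols that matched no ID included parp14rs1, which had 37 and 18 reads and was lower at -1.12 (interval -2.05 to -0.30), and dtx3lb.2, which had 79 and 61 (-0.48, interval -0.99 to 0.02).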
